A study of Mus musculus with 2 samples.

Results

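Collagens are the triple-helical proteins that form most of the fibrous extracellular matrix. The genes described here are the members of the mouse collagen family, taken as every gene whose symbol has the form Col, a type number, a and a chain number, and that had at least 50 unique molecular identifiers (UMIs, each standing for 1 captured transcript) over both libraries. The rule kept 43 of the 44 collagen symbols among 32285 features, and Col11a1, with 31 UMIs, was the one left out. Col24a1, with 50 UMIs, and Col25a1, with 53 UMIs, lay just inside the limit. No collagen was used as a marker to sort cells into classes. The limits of that sorting were set after collagen levels had been seen, so the levels are not fully independent of the classes.

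The cells were thymic stroma, the non-blood cells that house developing T cells, captured in droplets and sequenced cell by cell with 10x Genomics 3′ reagents as 2 libraries. Both libraries were labelled E2F_M11, a genotype in which 2 E2F binding sites of the proximal promoter of Foxn1, the master transcription factor of thymic epithelium, were deleted with CRISPR-Cas9. Every class compared below therefore carries that deletion, and the wild-type cells to which the study set these libraries were not analysed here. The labels give neither age nor sex, and nothing in them ties each library to its own animal. The p-values below therefore rest only on how far class differences disagree between these libraries, pooled over all classes of a fit. That spread may be technical.

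Thymi were digested with collagenase and dispase, enzymes that cut matrix proteins, and blood cells carrying CD45 were removed with a magnetic column step, per the labels' protocols. The counts below are of RNA, and the amount of collagen protein was not measured. Library 1 held 5110 barcodes and 41075328 UMIs, and 3588 cells with a median of 8727 UMIs passed the filters. Library 2 held 19163 barcodes and 42583831 UMIs, and 8186 cells with a median of 1874 UMIs passed. At least 1 fibroblast marker and 1 thymocyte marker were found together in 2373 of these cells in library 1 and in 5838 in library 2, and the libraries shared 30 barcodes. A cell was placed in a class only when it had at least 4 distinct markers of that class and when these made up at least 80% of its lineage-marker UMIs. Fibroblast-marker UMIs were left out of that share for mesothelium, and mural-marker UMIs for epithelium. By this gate, 2404 cells (67.0%) of library 1 and 3075 cells (37.6%) of library 2 received a class, and 1091 and 5093 cells were left in none.

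The gates gave 1538 and 1471 fibroblasts, 16 and 8 mural cells (pericytes and vascular smooth muscle), 86 and 4 mesothelial cells (the lining of the capsule), 77 and 47 endothelial cells, 553 and 180 epithelial cells and 134 and 1365 thymocytes in libraries 1 and 2. Here and below, paired values give library 1 first and library 2 second. Mural cells of both libraries and mesothelium of library 2 therefore rest on few cells. Among the fibroblasts, 545 and 361 were Pi16-type (at least 3 of 7 markers such as Pi16, Dpp4 and Sema3c), 152 and 104 Inmt-Penk-type, 217 and 151 Cxcl14-type and 188 and 103 Postn-type, each named for the transcripts that defined it, and 436 and 752 fell in no subtype. Among epithelial cells, 154 and 44 were Aire-type medullary, 252 and 67 Ccl21a-type medullary and 32 and 8 cortical. Levels are given as UMIs of a gene per 1000000 UMIs of the class (CPM). With 3′ counting a UMI does not scale with transcript length, but how well each 3′ end is captured can differ between genes, so levels are compared between classes within a gene.

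Fibrillar collagens (types I, II, III, V, XI, XXIV and XXVII) assemble into the banded fibrils of connective tissue. FACIT collagens (types IX, XII, XIV and XVI among others) sit on the surface of such fibrils, and type VI collagen forms beaded filaments around cells. Type IV collagen is the network of basement membranes, the sheets under epithelium and endothelium and around mural cells, where the multiplexins, types XV and XVIII, are also found. In the thymus, fibroblasts build the capsule and septa, and epithelial cells hold a reticular meshwork that T cells move through. Of all collagen UMIs in the deposited matrices, the 10 fibrillar members held 355177, the 6 type VI members 123888, the 9 network members 38013, the 2 multiplexins 31099 and the 9 FACIT members 23478. The 4 transmembrane members held 1221 UMIs, the anchoring-fibril gene Col7a1 held 685 and the 2 remaining genes, Col26a1 and Col28a1, held 313.

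RefSeq promoter sequences on build GRCm38.p6 were available for 34 of the 43 members. The 7 windows below belong to genes that the comparisons turn on, chosen to set a leading fibroblast gene (Col3a1) beside genes highest in other classes or subtypes. Each runs 5′ to 3′ on the gene's own strand and holds up to 250 bases before the RefSeq gene start, cut where a GENCODE exon begins. Capitals mark 3 motifs searched on both strands. The first is TATAAA (read as TTTATA on the other strand), the second is CCAAT (read as ATTGG) and the third is GGGCGG (read as CCGCCC), and none overlaps another here.
Col3a1, chr1:45311288-45311537, plus strand: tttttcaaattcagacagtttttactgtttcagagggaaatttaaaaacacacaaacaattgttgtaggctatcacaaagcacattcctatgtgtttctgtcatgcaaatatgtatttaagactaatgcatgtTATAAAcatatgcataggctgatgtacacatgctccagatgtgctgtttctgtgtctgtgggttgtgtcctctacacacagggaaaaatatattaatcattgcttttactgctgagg
Col8a1, chr16:57754738-57754987, minus strand: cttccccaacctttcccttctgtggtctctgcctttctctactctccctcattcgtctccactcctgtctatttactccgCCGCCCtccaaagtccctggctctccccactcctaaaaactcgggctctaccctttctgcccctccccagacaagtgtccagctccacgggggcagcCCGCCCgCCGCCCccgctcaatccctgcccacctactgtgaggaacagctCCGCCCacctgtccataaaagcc
Col15a1, chr4:47207762-47208011, plus strand: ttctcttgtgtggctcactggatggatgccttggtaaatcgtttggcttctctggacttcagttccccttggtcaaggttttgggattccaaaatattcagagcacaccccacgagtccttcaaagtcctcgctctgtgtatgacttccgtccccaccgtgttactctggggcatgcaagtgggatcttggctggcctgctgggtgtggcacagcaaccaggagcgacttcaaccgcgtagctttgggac
Col4a5, chrX:141475169-141475384, plus strand: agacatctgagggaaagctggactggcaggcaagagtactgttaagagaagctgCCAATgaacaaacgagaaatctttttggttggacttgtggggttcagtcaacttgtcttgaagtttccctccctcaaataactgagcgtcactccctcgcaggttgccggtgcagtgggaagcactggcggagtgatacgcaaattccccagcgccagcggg
Col4a6, chrX:141474077-141474326, minus strand: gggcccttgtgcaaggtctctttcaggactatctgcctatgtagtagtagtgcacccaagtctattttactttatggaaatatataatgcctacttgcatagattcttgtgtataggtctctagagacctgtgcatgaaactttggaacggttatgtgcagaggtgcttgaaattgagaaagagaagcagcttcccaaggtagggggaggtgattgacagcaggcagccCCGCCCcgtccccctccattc
Col13a1, chr10:61979109-61979358, minus strand: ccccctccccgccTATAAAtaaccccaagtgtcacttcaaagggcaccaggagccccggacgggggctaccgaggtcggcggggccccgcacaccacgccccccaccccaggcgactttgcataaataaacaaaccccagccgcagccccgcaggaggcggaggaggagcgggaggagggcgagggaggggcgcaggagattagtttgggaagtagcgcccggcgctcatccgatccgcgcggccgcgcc
Col17a1, chr19:47692095-47692292, minus strand: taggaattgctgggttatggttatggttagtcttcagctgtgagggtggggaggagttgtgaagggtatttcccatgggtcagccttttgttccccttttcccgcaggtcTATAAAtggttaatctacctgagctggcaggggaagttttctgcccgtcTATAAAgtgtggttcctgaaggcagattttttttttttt
The Col3a1 and Col13a1 windows each hold TATAAA at 1 place, and that of Col17a1, the collagen of hemidesmosomes, at 2 places. The Col8a1 window holds CCGCCC at 4 places and the Col15a1 window holds none of the motifs. In the uncut 250 bases before the RefSeq start, TATAAA occurred in 5 of the 34 members, the second motif CCAAT in 12 and the third in 20, while over all 32851 uncut windows the shares were 12.37%, 33.85% and 32.74%. These matches describe the letters only. Col4a5 and Col4a6, which encode the basement membrane chains that were highest in mesothelium, start 1308 bases apart head to head on the X chromosome.

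Collagens took the largest share of all UMIs in fibroblasts and within them in the Pi16-type. They made up 2.15% and 1.42% of UMIs in fibroblasts, against 0.668% and 0.767% in mesothelium, 0.401% and 0.332% in mural cells, 0.223% and 0.252% in endothelium, 0.0860% and 0.0755% in epithelium and 0.0254% and 0.00966% in thymocytes. Thymocytes are not a known source of these collagens, and their share is given beside the others, since free RNA in empty droplets was not measured. Each of these 5 stromal lineages lay above the thymocytes of its own library. Keratinocyte-like epithelium, with few cells, had 0.0106% and 0.00842%. Among fibroblasts the share was 2.86% and 1.86% in Pi16-type cells, 1.79% and 1.60% in Inmt-Penk-type, 1.61% and 1.25% in Postn-type and 1.38% and 1.15% in Cxcl14-type cells. The order Pi16-type, Inmt-Penk-type, Postn-type, Cxcl14-type held in both libraries. Within the epithelium, Ccl21a-type cells had 0.173% and 0.140%, against 0.0523% and 0.0597% in Aire-type and 0.0471% and 0.0526% in cortical cells.

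**Figure D1:**
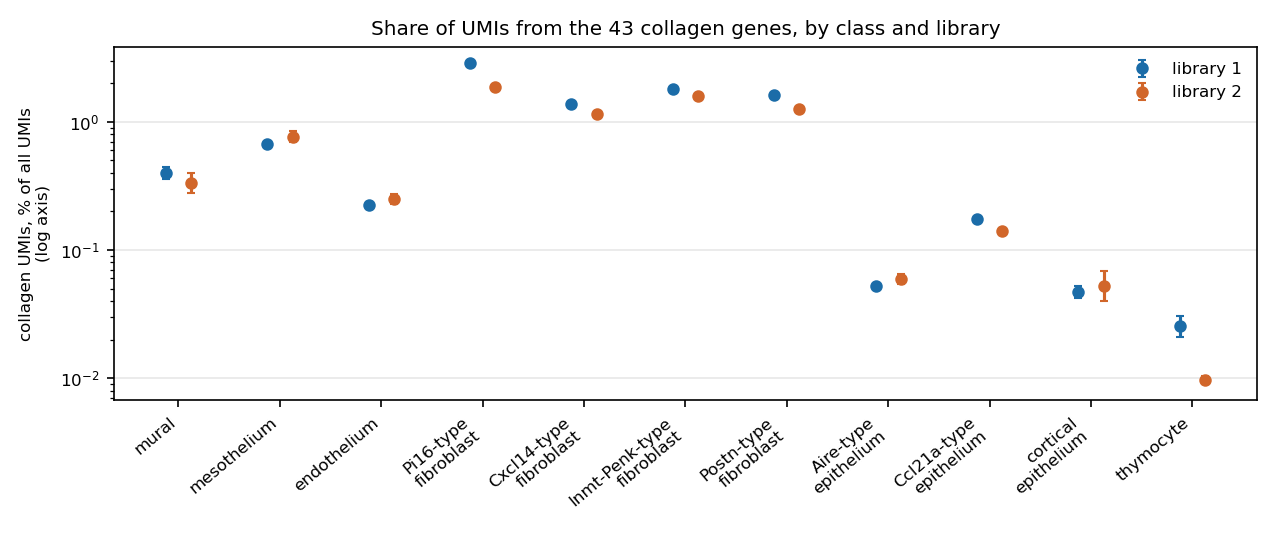
Share of a class's UMIs that map to the 43 collagen genes, in percent on a log axis, for each class and library (points) with 95% Wilson intervals that cover counting error only. Pi16-type fibroblasts lie highest, at 2.86% and 1.86%, and thymocytes lie at 0.0254% and 0.00966%.

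The kinds of collagen differed as well. Fibrillar members took 64.95% and 64.7% of the collagen UMIs in fibroblasts and 78.7% and 89.01% in mesothelium, against 40.4% and 42.4% in mural cells, 14.9% and 15.8% in epithelium and 4.37% and 1.24% in endothelium. Network members, nearly all type IV, took 67.8% and 72.8% in endothelium, 33.02% and 43.2% in mural cells and 30.5% and 30.02% in epithelium, against 4.60% and 6.26% in fibroblasts. Type VI took its largest share in Ccl21a-type medullary epithelium, at 42.5% and 41.1%, ahead of Postn-type fibroblasts at 33.00% and 32.8%. Cells with markers of both fibroblasts and mural cells, which no comparison used, lay between these at 34.9% and 34.05%. These shares are descriptions of the summed classes, and differences between classes are tested gene by gene below.

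Of the 38 members with at least 50 UMIs in the gated lineages, 22 were highest in fibroblasts in both libraries. Endothelium was highest for Col4a1 and Col13a1 in both libraries, mesothelium for Col4a3, Col4a4, Col4a5 and Col4a6, and epithelium for Col17a1, Col19a1, Col9a1, Col2a1, Col22a1 and Col9a2. In library 2, mesothelium had only 4 cells and a floor of 64.8 CPM (3 UMIs). Its Col4a3, at 21.6 CPM, and Col4a4, at 43.2 CPM from 2 UMIs, lay under that floor, and Col4a6 lay at it. Col11a2 was highest in thymocytes, on 2 and 14 UMIs. The highest class differed between the libraries for Col4a2, Col16a1 and Col20a1.

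**Figure D2:**
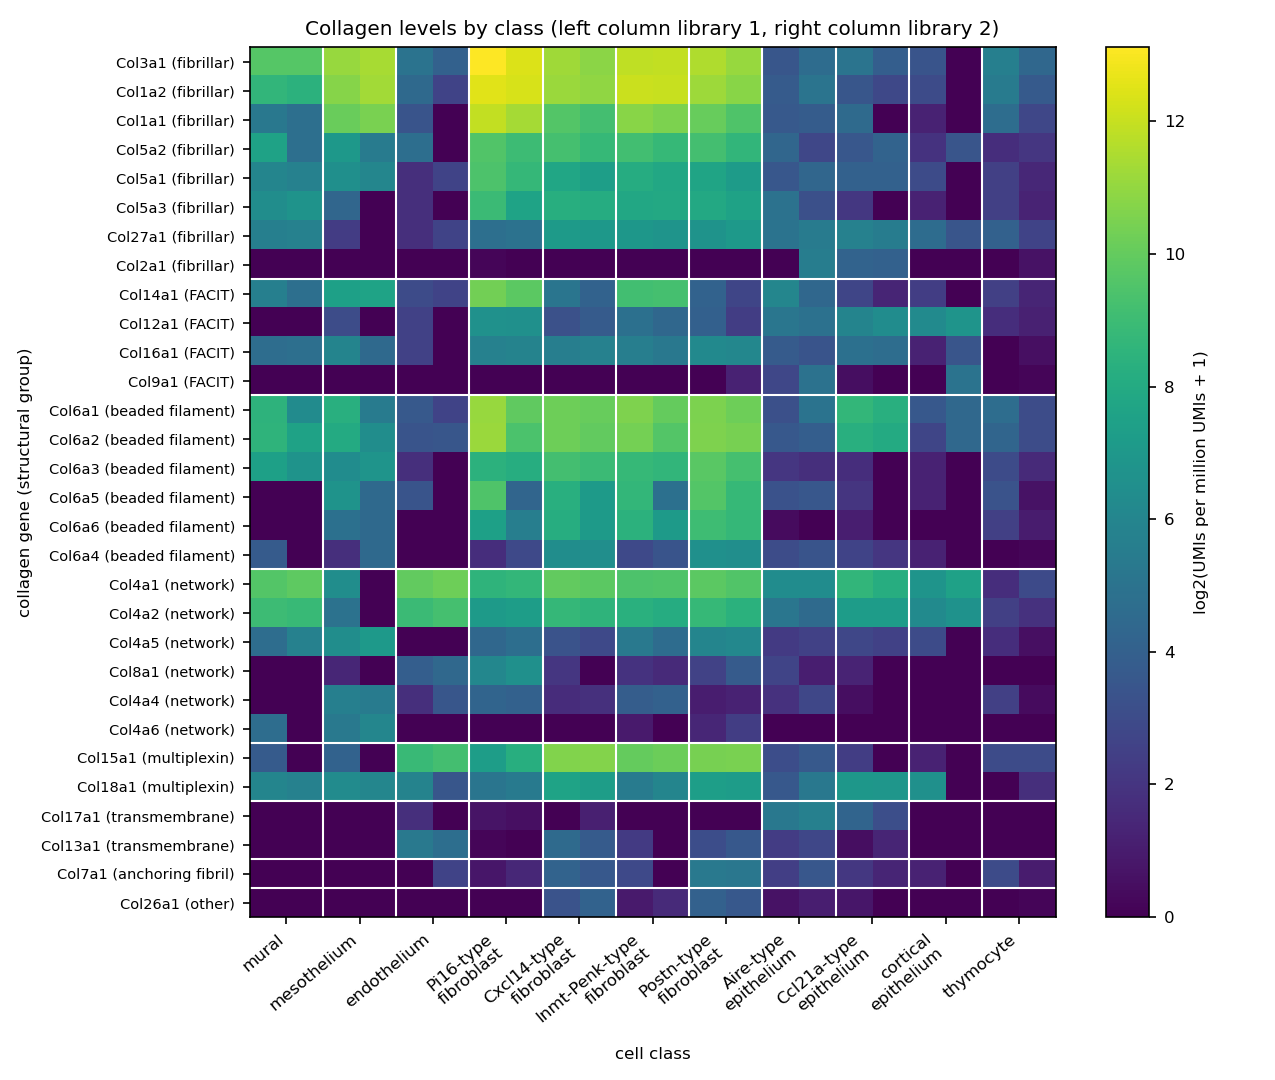
Level of the 30 tested collagens (rows, grouped by kind) in 11 classes of each library (columns), as log2 of CPM plus 1. The fibrillar and type VI rows are brightest in the 4 fibroblast subtypes, the Col4a1 and Col4a2 rows extend to endothelium, mural cells and Ccl21a-type epithelium, and the Col17a1 row is brightest in Aire-type epithelium.

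Fibroblasts were first set against epithelium, the other large stromal lineage of the thymus. Of the 26 members that passed the filter on low counts, 22 were higher in fibroblasts and 1 was lower (edgeR quasi-likelihood test with library as a block, adjusted over all genes by the Benjamini-Hochberg method, threshold 0.05). Over all 11926 genes tested, 20.4% were called higher and 20.1% lower (40.4% in either direction). The median log2 fold of the tested members was 3.67, and that of all genes was 0.02. A member could pass the filter through the class in which it is high, so these counts describe the members and the 17 that did not pass are given further on. The widest differences were in chains of the interstitial fibril and its filaments.

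Col3a1, the single chain of type III collagen, had 5686 and 3415 CPM in fibroblasts, against 18.8 and 13.5 CPM in epithelium (log2 fold 8.27 ± 0.48, edgeR adjusted p = 1.61e-14). Col1a2, which pairs with Col1a1 in type I collagen, had 4328 and 3319 CPM in fibroblasts and 11.03 and 14.3 CPM in epithelium (log2 fold 8.40 ± 0.53, edgeR adjusted p = 3.85e-14). Col1a1 itself had 2427 and 1526 CPM in fibroblasts and 13.5 and 7.94 CPM in epithelium (log2 fold 7.69 ± 0.49, edgeR adjusted p = 4.68e-14). In each of these genes the fibroblast values of both libraries lay over 100 times above the epithelial ones. A Col1a2 UMI was found in 99.5% and 93.9% of fibroblasts and in 12.7% and 5.57% of thymocytes, at median depths of 8880 and 2842 UMIs in fibroblasts and 2287 and 2420 in thymocytes. With every cell thinned to 1000 UMIs the shares were 89.1% and 82.5% in fibroblasts and 8.96% and 2.27% in thymocytes. The type V genes, whose chains start fibrils and limit their width, rose too, with log2 folds of 5.73 for Col5a2, 5.10 for Col5a1 and 5.10 for Col5a3.

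Type VI chains rose in fibroblasts by unequal amounts. Col6a6 had 274 and 156 CPM in fibroblasts, against 0.557 and 0 CPM in epithelium (log2 fold 9.28 ± 0.52, edgeR adjusted p = 1.66e-14). Col6a3 had 489 and 386 CPM in fibroblasts and 2.34 and 1.59 CPM in epithelium (log2 fold 7.94 ± 0.45, edgeR adjusted p = 1.32e-14). Col6a3 and Col6a6 are among the alternative chains that join Col6a1 and Col6a2 in a type VI trimer, and those shared chains differed far less. Col6a1 had 1716 and 990.2 CPM in fibroblasts and 136 and 111.97 CPM in epithelium (log2 fold 3.52 ± 0.43, edgeR adjusted p = 2.36e-08). Col6a2 had 1726 and 853 CPM in fibroblasts and 106 and 82.99 CPM in epithelium (log2 fold 3.83 ± 0.39, edgeR adjusted p = 7.86e-10).

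Most basement membrane members rose less, and Col17a1 was the single fall. Col15a1 was an exception, at 811 and 946 CPM in fibroblasts and 6.13 and 6.35 CPM in epithelium (log2 fold 7.27 ± 0.46, edgeR adjusted p = 3.94e-14). Col4a1 had 636 and 569 CPM in fibroblasts, against 171 and 136 CPM in epithelium (log2 fold 2.13 ± 0.41, edgeR adjusted p = 5.70e-05), and Col4a2 followed with a log2 fold of 2.12. Col18a1, whose C-terminal fragment is endostatin, had 88.5 and 88.5 CPM in fibroblasts and 51.6 and 59.6 CPM in epithelium (log2 fold 0.83 ± 0.32, edgeR adjusted p = 0.0389), a call that 11 of the other settings did not make (adjusted p of 0.233 under DESeq2). With cells holding a UMI of a thymocyte or other blood marker left out, its log2 fold was -0.28 (edgeR adjusted p = 0.73). Col17a1, the transmembrane collagen of hemidesmosomes, had 0.341 and 0.443 CPM in fibroblasts, against 23.6 and 30.2 CPM in epithelium (log2 fold -5.83 ± 0.57, edgeR adjusted p = 7.01e-10). The FACIT gene Col12a1, with 56.4 and 41.6 CPM in fibroblasts and 42.1 and 40.9 CPM in epithelium, did not pass the test (edgeR adjusted p = 0.333), nor did Col4a4 or Col13a1.

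The fibroblast marker list summed to 18846 and 21385 CPM in fibroblasts, against 101 and 82.99 CPM in epithelium and 93.9 and 68.6 CPM in thymocytes, with 8 and 8 of 8 markers detected in epithelium and 8 and 8 of 8 in thymocytes. Epithelium was also set against thymocytes, which are not a known source of these collagens. In epithelium, 17 of the 26 tested members were higher and 2 lower than in thymocytes, beside 30% of all genes called higher and 19.5% called lower (49.5% in either direction). Their median log2 fold was 2.82 for the tested members (2.75 with members at 0 placed at their bound) and 0.06 for all genes.

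The members higher in epithelium included the main type IV chains, Col18a1, Col6a1 and Col6a2, whereas types I and III were not among them. Col3a1 had 18.8 and 13.5 CPM in epithelium, against 50.4 and 19.9 CPM in thymocytes (log2 fold -1.05 ± 0.40, edgeR adjusted p = 0.0306), and with the stricter cell filter this log2 fold was -0.03 (edgeR adjusted p = 0.97). Col1a2 had 11.03 and 14.3 CPM in epithelium and 43.5 and 12.2 CPM in thymocytes (edgeR adjusted p = 0.108), and Col15a1 had 6.13 and 6.35 CPM in epithelium and 6.87 and 6.87 CPM in thymocytes (edgeR adjusted p = 0.623). None of Col3a1, Col1a2 and Col15a1 was thus called higher in epithelium than in thymocytes. Col4a1 had 171 and 136 CPM in epithelium and 2.29 and 6.73 CPM in thymocytes (log2 fold 4.38 ± 0.52, edgeR adjusted p = 1.92e-08). Col18a1 had 51.6 and 59.6 CPM in epithelium and 0 and 2.43 CPM in thymocytes (log2 fold 4.30 ± 0.50, edgeR adjusted p = 1.42e-08). Col12a1 had 42.1 and 40.9 CPM in epithelium and 2.29 and 1.29 CPM in thymocytes (log2 fold 4.51 ± 0.50, edgeR adjusted p = 8.70e-09). All of these epithelial values lay above the thymocyte values of both libraries. Col4a2, Col6a1 and Col6a2 were also higher, with log2 folds of 4.20, 3.18 and 2.95. Col17a1 had 288 UMIs in epithelium and 0 in thymocytes, at least 61.98-fold higher against a floor of 3 UMIs over the thymocytes. Col8a1 and Col13a1, likewise at 0 in thymocytes, were at least 10.6-fold and 6.46-fold higher, although Col8a1 came from 8 and 3 epithelial cells and the Col13a1 call was lost under 3 other gates. The epithelial level of Col16a1, a FACIT collagen, was 41.8 (95% counting interval 14.1 to 204) times that of thymocytes, and that of Col6a4 was 36.2 (95% counting interval 6.23 to 1453) times. The Col6a4 call was lost under a gate without a share rule (edgeR adjusted p = 0.0538). A gate with a 90% share lost the calls of Col6a4 and Col8a1 (edgeR adjusted p of 0.21 and 0.118). Col6a6 was lower, on 5 epithelial and 9 thymocyte UMIs (edgeR adjusted p = 0.0225), a call that was lost with the stricter cell filter (adjusted p of 0.0842).

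Mural cells, mesothelium and endothelium were each set against fibroblasts. These comparisons share their fibroblast samples, so their counts are not independent. Mural cells had no member called higher and 14 called lower of the 26 tested, beside 2.78% of all genes called higher and 6.14% called lower (8.92% in either direction). The median log2 fold was -3.13 for the tested members (-2.24 with zeros at their bound) and -0.71 for all genes. That shift of all genes depended on scaling and was -0.33 under relative log expression scaling and -0.07 under DESeq2. The CPM ratios of the single libraries, with 0.5 counts added to every sum, gave 0.47 and 0.58. Added counts weigh more in the small mural sums, and their part in these values was not tested. Mural changes are read relative to the shift.

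Col1a1 was the fibrillar member that dropped furthest in mural cells among those with more than 3 UMIs there. It had 37.1 and 26.6 CPM in mural cells, against 2427 and 1526 CPM in fibroblasts (log2 fold -6.54 ± 0.61, edgeR adjusted p = 2.26e-09), on only 4 mural UMIs. Col1a2 had 396 and 346 CPM in mural cells and 4328 and 3319 CPM in fibroblasts (log2 fold -3.95 ± 0.46, edgeR adjusted p = 1.57e-07). Col3a1 had 805 and 797 CPM in mural cells and 5686 and 3415 CPM in fibroblasts (log2 fold -3.07 ± 0.40, edgeR adjusted p = 1.06e-06). Mural levels of Col3a1 and Col1a2 were lower than in fibroblasts in both libraries, and higher than in thymocytes, which had 50.4 and 19.9 CPM of Col3a1 and 43.5 and 12.2 CPM of Col1a2. Fibroblast markers in mural cells summed to 124 and 53.2 CPM with 3 and 2 of 8 markers detected. Col14a1, a FACIT collagen, fell to 49.5 and 26.6 CPM in mural cells, against 704 and 437 CPM in fibroblasts (log2 fold -4.47 ± 0.56, edgeR adjusted p = 6.02e-07). Col6a1 and Col6a2 were lower with log2 folds of -3.20 and -2.74. Col6a5, Col6a6 and Col12a1 had no mural UMI and were at least 16.9-fold, 9.35-fold and 2.04-fold lower. The mural level of Col15a1 was 0.00990 (95% counting interval 2.51e-04 to 0.0552) times that of fibroblasts, from 1 UMI.

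The main type IV genes and Col18a1 were not called either way in mural cells. Col4a1 had 768 and 930.4 CPM in mural cells and 636 and 569 CPM in fibroblasts (log2 fold -0.11 ± 0.43, edgeR adjusted p = 0.912), and Col4a2 had 508 and 452 CPM in mural cells and 276 and 245 CPM in fibroblasts (log2 fold 0.31 ± 0.39, edgeR adjusted p = 0.748). Mural CPM lay above fibroblast CPM in both libraries for both genes, and the sign of the Col4a1 log2 fold depends on scaling. Col18a1 had 61.9 and 53.2 CPM in mural cells and 88.5 and 88.5 CPM in fibroblasts (edgeR adjusted p = 0.318).

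In mesothelium, 3 of the 26 tested members were higher and 19 lower than in fibroblasts, beside 6.25% and 8.23% of all genes (14.5% in either direction). By median, the log2 fold was -2.79 for the tested members (-2.47 with zeros at their bound), against -0.25 for all genes. The 3 that rose all encode the minor chains of type IV collagen, which form the specialised networks of kidney, lung and smooth muscle basement membranes. Col4a6 had 38.4 and 64.8 CPM in mesothelium, against 0.478 and 0.591 CPM in fibroblasts (log2 fold 6.14 ± 0.82, edgeR adjusted p = 1.39e-06), though DESeq2 gave an adjusted p of 0.428. Col4a4 had 49.1 and 43.2 CPM in mesothelium and 11.7 and 7.83 CPM in fibroblasts (log2 fold 2.15 ± 0.49, edgeR adjusted p = 0.00177). Col4a5 had 84.2 and 129.6 CPM in mesothelium and 25.9 and 25.4 CPM in fibroblasts (log2 fold 1.72 ± 0.39, edgeR adjusted p = 0.00177). The library 2 values come from 4 cells, with 2 UMIs of Col4a4, 6 of Col4a5 and 3 of Col4a6, the last in 2 of the cells. In library 1, 33 of 86 mesothelial cells had a Col4a6 UMI.

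The major type IV chains went the other way. Col4a1 had 86.7 and 0 CPM in mesothelium and 636 and 569 CPM in fibroblasts (log2 fold -3.19 ± 0.48, edgeR adjusted p = 6.78e-06). Col4a2 had 29.4 and 0 CPM in mesothelium and 276 and 245 CPM in fibroblasts (log2 fold -3.39 ± 0.47, edgeR adjusted p = 1.24e-06). Mesothelium of both libraries thus had less of both genes than fibroblasts. Col15a1 fell to 16.4 and 0 CPM in mesothelium, against 811 and 946 CPM in fibroblasts (log2 fold -5.83 ± 0.51, edgeR adjusted p = 2.34e-10), while Col18a1, with 79.3 and 64.8 CPM in mesothelium and 88.5 and 88.5 CPM in fibroblasts, did not pass the test (edgeR adjusted p = 0.704). Col6a1 and Col6a2 were lower, with log2 folds of -2.995 and -2.93. Among fibrillar members, Col5a3 and Col27a1 were lower with log2 folds of -4.49 and -4.43, and the FACIT and network genes Col12a1 and Col8a1 were lower as well.

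Types I and III stayed high in mesothelium. Col3a1 had 2193 and 2722 CPM in mesothelium and 5686 and 3415 CPM in fibroblasts (log2 fold -1.15 ± 0.36, edgeR adjusted p = 0.0232). Col1a2 had 1721 and 2549 CPM in mesothelium and 4328 and 3319 CPM in fibroblasts (log2 fold -1.16 ± 0.39, edgeR adjusted p = 0.0395). Both calls were lost under DESeq2 (adjusted p of 0.0775 for Col3a1 and 0.37 for Col1a2) and with classes taken from clusters (adjusted p of 0.194 for each). Col1a1, at 1104 and 1447 CPM in mesothelium and 2427 and 1526 CPM in fibroblasts, was not called (edgeR adjusted p = 0.116). Fibroblast markers summed to 12538 and 18470 CPM in the mesothelial class, with 8 and 5 of 8 detected and Dcn alone at 9668 and 14431 CPM, against 18846 and 21385 CPM in fibroblasts. Their part in the fibrillar levels of mesothelium was not tested.

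Endothelium had 1 member higher and 18 lower than fibroblasts of the 26 tested, beside 7.61% and 11.8% of all genes (19.4% in either direction). The median log2 fold was -5.71 for the tested members (-4.51 with zeros at their bound) and -0.25 for all genes. Col13a1, a transmembrane collagen, had 37.96 and 25.9 CPM in endothelium, against 6.005 and 5.91 CPM in fibroblasts (log2 fold 2.29 ± 0.61, edgeR adjusted p = 0.00588). It came from 4 of 77 and 2 of 47 endothelial cells, and a single cell held 11 of the 16 UMIs in library 1 and 3 of the 5 in library 2.

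The main type IV genes and Col15a1 were not called lower in endothelium. Col4a1 had 1001 and 1183 CPM in endothelium and 636 and 569 CPM in fibroblasts (log2 fold 0.68 ± 0.40, edgeR adjusted p = 0.288). Col4a2 had 491 and 617 CPM in endothelium and 276 and 245 CPM in fibroblasts (log2 fold 0.91 ± 0.34, edgeR adjusted p = 0.0632), a difference that was called under DESeq2, relative log expression scaling, no filter on low counts and the stricter cell filter. Endothelial CPM lay above fibroblast CPM in both libraries for both genes. Col15a1 had 472 and 591 CPM in endothelium and 811 and 946 CPM in fibroblasts (log2 fold -0.91 ± 0.35, edgeR adjusted p = 0.067). Col18a1 had 56.9 and 10.4 CPM in endothelium and 88.5 and 88.5 CPM in fibroblasts (log2 fold -1.34 ± 0.44, edgeR adjusted p = 0.0261), which DESeq2 did not call (adjusted p of 0.0975). With classes taken from clusters its log2 fold was -0.34 (edgeR adjusted p = 0.617).

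Col1a1, Col1a2 and Col3a1 of endothelium were below the thymocyte level in both libraries. Col3a1 had 30.8 and 15.6 CPM in endothelium, against 5686 and 3415 CPM in fibroblasts (log2 fold -7.72 ± 0.51, edgeR adjusted p = 1.91e-13), beside 50.4 and 19.9 CPM in thymocytes. Col1a2 had 21.4 and 5.19 CPM in endothelium and 4328 and 3319 CPM in fibroblasts (log2 fold -8.16 ± 0.58, edgeR adjusted p = 1.05e-12), and Col1a1 had 9.49 and 0 CPM in endothelium and 2427 and 1526 CPM in fibroblasts (log2 fold -8.58 ± 0.62, edgeR adjusted p = 1.24e-12). Col6a1 and Col6a2 were lower in endothelium with log2 folds of -7.52 and -7.30. Col6a6, Col6a4 and Col4a5 had no endothelial UMI and were at least 48.5-fold, 7.54-fold and 5.27-fold lower. The endothelial level of Col6a3 was 0.00357 (95% counting interval 9.03e-05 to 0.0199) times that of fibroblasts.

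The 4 fibroblast subtypes were compared next, each against the unweighted mean of the other 3 on the log scale, over 30 members that passed the filter in a fit of 11 classes. Reference levels in CPM are the unweighted mean of the CPM values of the other 3 subtypes, whereas counting intervals and bounds use their summed UMIs. A subtype can therefore be called higher while 1 of the others lies above it. These 4 comparisons share their cells and are not independent. Pi16 marks fibroblasts of vessel adventitia in other mouse tissues. Median UMIs per cell were 11359 and 5505 in Pi16-type cells, whose gate needs 3 distinct markers, against 7508 and 4328 in Inmt-Penk-type, 8140 and 4917 in Cxcl14-type and 9121.5 and 6600 in Postn-type cells.

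In Pi16-type cells types I and III were higher and the main type IV genes and the multiplexins lower. Of the 30 tested members 8 were higher and 11 lower, beside 9.47% and 7.31% of all 12305 genes (16.8% in either direction). Medians of the log2 fold were 0.07 for the tested members and 0.05 for all genes. Col1a1 had 3869 and 2654 CPM in Pi16-type cells, against 1212 and 931 CPM in the other subtypes (log2 fold 1.83 ± 0.27, edgeR adjusted p = 4.75e-06). Col3a1 had 8896 and 5528 CPM in Pi16-type cells and 3060 and 2633 CPM in the others (log2 fold 1.503 ± 0.25, edgeR adjusted p = 2.90e-05). Col1a2 had 5921 and 5156 CPM in Pi16-type cells and 2979 and 2652 CPM in the others (log2 fold 1.21 ± 0.26, edgeR adjusted p = 8.63e-04). Col5a1, which helps start fibrils, was higher with a log2 fold of 1.62.

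Col14a1, Col12a1 and Col8a1 were higher by a larger log2 fold. Col14a1 had 1269 and 903 CPM in Pi16-type cells, against 206 and 213 CPM in the other subtypes (log2 fold 4.42 ± 0.23, edgeR adjusted p = 2.96e-15). Col12a1 had 100.1 and 94.8 CPM in Pi16-type cells and 17.04 and 12.2 CPM in the others (log2 fold 2.93 ± 0.24, edgeR adjusted p = 7.74e-11). Col8a1, a network collagen of vessel walls and of the cornea, had 65.4 and 95.6 CPM in Pi16-type cells and 3.62 and 4.91 CPM in the others (log2 fold 4.60 ± 0.37, edgeR adjusted p = 2.12e-10). A Col8a1 UMI was present in 22.8% and 17.7% of Pi16-type cells, and in 3 of 217 and 0 of 151 Cxcl14-type cells. Col4a4 was higher with a log2 fold of 2.40.

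Col15a1 was among the genes that fell, at 158 and 298 CPM in Pi16-type cells and 1337 and 1412 CPM in the other subtypes (log2 fold -2.47 ± 0.29, edgeR adjusted p = 1.13e-07). The fibrillar gene Col27a1 was also lower, at 26.5 and 30.3 CPM in Pi16-type cells and 124 and 125 CPM in the others (log2 fold -1.995 ± 0.22, edgeR adjusted p = 4.19e-08). Col18a1 was lower with a log2 fold of -1.47, Col4a1 with -0.95 and Col4a2 with -1.13. Col7a1, which forms anchoring fibrils under the epidermis, had 0.748 and 1.73 CPM in Pi16-type cells and 20.6 and 15.6 CPM in the others (log2 fold -3.41 ± 0.67, edgeR adjusted p = 3.60e-04). Col6a4 had 2.24 and 6.49 CPM in Pi16-type cells and 62.9 and 62.1 CPM in the others (log2 fold -3.27 ± 0.38, edgeR adjusted p = 9.51e-08). Col26a1 had no Pi16-type UMI and was at least 30.4-fold lower, and the Pi16-type level of Col13a1 was 0.00982 (95% counting interval 2.45e-04 to 0.0563) times that of the others. Col6a1, at 2164 and 953 CPM in Pi16-type cells and 1401 and 1094 CPM in the others, and Col6a2, at 2250 and 674 CPM in Pi16-type cells and 1353 and 1052 CPM in the others, were not called (edgeR adjusted p = 0.546 for Col6a1 and 0.577 for Col6a2). For both genes the libraries moved in opposite directions.

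Inmt-Penk-type cells differed from the other subtypes in few collagens, with 1 member higher and 1 lower of 30, beside 2.21% and 0.593% of all genes (2.8% in either direction). Here the median log2 fold was -0.11 for the tested members and -0.01 for all genes. Col14a1 had 568 and 618 CPM in Inmt-Penk-type cells, against 439 and 308 CPM in the other subtypes (log2 fold 3.17 ± 0.24, edgeR adjusted p = 1.98e-10), with Pi16-type cells at 1269 and 903 CPM still above them. Col6a4 had 6.35 and 9.78 CPM in Inmt-Penk-type cells and 61.5 and 60.99 CPM in the others (log2 fold -2.03 ± 0.43, edgeR adjusted p = 0.00454). No other collagen passed the test, among them Col1a1 (edgeR adjusted p = 0.853), Col3a1 (0.982) and Col15a1 (0.623).

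Cxcl14-type cells had 6 members higher and 5 lower, beside 2.7% and 1.4% of all genes (4.1% in either direction). Median log2 folds were -0.26 for the tested members and 0.00 for all genes. Both multiplexins were among the higher ones. Col15a1 had 1566 and 1652 CPM in Cxcl14-type cells, against 868 and 961 CPM in the other subtypes (log2 fold 1.10 ± 0.24, edgeR adjusted p = 0.00311). Col18a1 had 197 and 158 CPM in Cxcl14-type cells and 79.9 and 84.7 CPM in the others (log2 fold 1.33 ± 0.30, edgeR adjusted p = 0.00535). DESeq2 called neither, with adjusted p of 0.0651 for Col15a1 and 0.263 for Col18a1. The transmembrane gene Col13a1 had 22.1 and 12.6 CPM in Cxcl14-type cells and 3.81 and 3.79 CPM in the others (log2 fold 3.40 ± 0.57, edgeR adjusted p = 3.07e-04), in 29 and 5 cells. Col6a4 had 85.6 and 88.4 CPM in Cxcl14-type cells and 35.1 and 34.8 CPM in the others (log2 fold 2.55 ± 0.27, edgeR adjusted p = 2.39e-07). Col26a1 and Col27a1 were higher with log2 folds of 3.30 and 0.80.

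The genes that fell in Cxcl14-type cells were mainly interstitial. Col14a1 had 32.8 and 16.4 CPM in Cxcl14-type cells and 618 and 509 CPM in the other subtypes (log2 fold -3.10 ± 0.33, edgeR adjusted p = 2.16e-07). Col1a1 had 785 and 596 CPM in Cxcl14-type cells and 2240 and 1617 CPM in the others (log2 fold -1.37 ± 0.32, edgeR adjusted p = 0.0072), and Col3a1 had 2461 and 1816 CPM in Cxcl14-type cells and 5205 and 3870 CPM in the others (log2 fold -1.05 ± 0.29, edgeR adjusted p = 0.027). DESeq2 called neither, with adjusted p of 0.103 for Col1a1 and 0.0513 for Col3a1. Col4a5 and Col12a1 were lower with log2 folds of -2.23 and -1.68.

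Postn-type cells had 11 members higher and 4 lower, beside 4.88% and 3.37% of all genes (8.26% in either direction). In the median, the log2 fold was 0.42 for the tested members (0.52 with zeros at their bound) and -0.01 for all genes. All 4 alternative chains of type VI collagen, Col6a3 to Col6a6, were higher. Col6a6 had 536 and 425 CPM in Postn-type cells, against 266 and 109 CPM in the other subtypes (log2 fold 1.56 ± 0.22, edgeR adjusted p = 8.37e-06). Col6a3 had 871 and 609.5 CPM in Postn-type cells and 457 and 393 CPM in the others (log2 fold 0.79 ± 0.20, edgeR adjusted p = 0.00771). Col6a5 had 784 and 445 CPM in Postn-type cells and 481 and 62.8 CPM in the others (log2 fold 1.85 ± 0.45, edgeR adjusted p = 0.00653), a call that was lost without the library block and under DESeq2 (adjusted p of 0.473 and 0.429). Col6a4 had 96.6 and 88.1 CPM in Postn-type cells and 31.4 and 34.9 CPM in the others (log2 fold 2.75 ± 0.27, edgeR adjusted p = 1.45e-08). For this gene Cxcl14-type cells were the highest class of library 2, at 88.4 CPM, so its rise was not particular to Postn-type cells. In the mouse genome Col6a4, Col6a5 and Col6a6 lie in tandem on chromosome 9, 28810 and 27917 bases apart. Of the shared chains, Col6a1 had 1461 and 1184 CPM in Postn-type cells and 1635 and 1018 CPM in the others and was not called (log2 fold 0.01). Col6a2 had 1556 and 1361 CPM in Postn-type cells and 1584 and 823 CPM in the others (edgeR adjusted p = 0.688).

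Col7a1 was higher in the Postn-type as well. It had 38.2 and 35.5 CPM in Postn-type cells, against 8.11 and 4.37 CPM in the other subtypes (log2 fold 3.15 ± 0.47, edgeR adjusted p = 2.08e-05), and was seen in 23.9% and 15.5% of Postn-type cells. Col4a5 had 60.6 and 69.6 CPM in Postn-type cells and 22.8 and 18.4 CPM in the others (log2 fold 1.79 ± 0.26, edgeR adjusted p = 9.78e-06), and its partner Col4a6 had a level 31.4 (95% counting interval 3.81 to 1443) times that of the others. The Col4a6 call was lost under DESeq2 (adjusted p of 0.918) and with stricter subtype limits (edgeR adjusted p = 0.0996). Col15a1 and Col18a1 rose with log2 folds of 0.92 and 1.16, which DESeq2 did not call (adjusted p of 0.12 and 0.272). Both genes were highest in Cxcl14-type cells in each library. Col26a1 and Col13a1 rose with log2 folds of 3.66 and 2.16, although Cxcl14-type cells had Col13a1 at 22.1 and 12.6 CPM, above the 7.64 and 11.4 CPM of Postn-type cells. With stricter subtype limits Col13a1 was not called (edgeR adjusted p = 0.196). Cxcl14-type cells were also the highest class for Col26a1 in library 2, at 16.4 CPM. Col14a1 fell to 16.4 and 5.68 CPM in Postn-type cells, against 623 and 512 CPM in the others (log2 fold -4.49 ± 0.37, edgeR adjusted p = 3.24e-10). Col12a1 and Col5a1 were lower with log2 folds of -1.34 and -0.84, and the Postn-type level of Col4a4 was 0.0857 (95% counting interval 0.0175 to 0.255) times that of the others. Mural markers summed to 443 and 442 CPM in Postn-type cells, against 23.2 and 38.1 CPM in Pi16-type, 321 and 318 CPM in Cxcl14-type and 138 and 145 CPM in Inmt-Penk-type cells, and their part in the Postn-type collagens was not tested. Col7a1 had 0 and 0 UMIs in mural cells, where the floor of 3 UMIs was 37.2 and 79.7 CPM, near or above the Postn-type level. In cells with markers of both fibroblasts and mural cells, Col7a1 held 39 of 935920 and 5 of 130699 UMIs. In Postn-type cells it held 70 of 1831555 and 25 of 703806.

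Col6a5 differed widely between the libraries within fibroblasts. In Pi16-type cells it had 4795 and 42 UMIs, a level 39.5 times as high in library 1 as in library 2, while the same ratio was 15.1 in Inmt-Penk-type, 2.18 in Cxcl14-type and 1.76 in Postn-type cells. A Col6a5 UMI was present in 59.8% and 7.48% of Pi16-type cells, and in 26.97% and 1.66% after thinning to 1000 UMIs per cell. Library 1 was also higher for Col6a6 and Col6a2 in Pi16-type cells, by ratios of 3.71 and 3.34. Of 20 members with at least 20 UMIs in all 4 subtypes, 0 differed between libraries by more than 2 times in every subtype. Other genes of the Pi16-type class differed as well, with Postn at 1655 and 122 CPM and Smpd3, a marker used in its gate, at 3927 and 579 CPM. Their part in the Col6a5 difference was not tested, and the labels name no difference between the libraries.

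Medullary epithelium was compared within itself, Aire-type cells, which express tissue-restricted antigens, against Ccl21a-type cells, which make the chemokine that draws T cells into the medulla. Of 30 tested members 7 were higher and 7 lower in Aire-type cells, beside 18.8% and 12.5% of all genes (31.3% in either direction). The median log2 fold was 0.15 for the tested members (0.29 with zeros at their bound) and 0.05 for all genes. Aire-type cells were deeper, with median UMIs of 21291 and 17757, against 8888 and 8903 in Ccl21a-type cells.

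Col6a1, Col6a2, the main type IV genes and Col18a1 were lower in Aire-type cells. Col6a2 had 11.2 and 14.2 CPM in Aire-type cells, against 314 and 259.9 CPM in Ccl21a-type cells (log2 fold -4.53 ± 0.45, edgeR adjusted p = 7.75e-09). Col6a1 had 8.06 and 30.8 CPM in Aire-type cells and 410.0 and 312 CPM in Ccl21a-type cells (log2 fold -4.37 ± 0.55, edgeR adjusted p = 3.42e-07). For both genes every Ccl21a-type value lay above every Aire-type value. A Col6a1 UMI was present in 14.3% and 18.2% of Aire-type and 88.1% and 76.1% of Ccl21a-type cells, and in 7.46% and 3.66% of thymocytes. Thinned to 1000 UMIs, the shares were 3.25% and 6.82% in Aire-type and 36.9% and 25.4% in Ccl21a-type cells. Col4a1 had 82.1 and 82.8 CPM in Aire-type cells and 393 and 291 CPM in Ccl21a-type cells (log2 fold -1.94 ± 0.34, edgeR adjusted p = 5.05e-05). Col4a2 had 34.6 and 22.5 CPM in Aire-type cells and 151 and 153 CPM in Ccl21a-type cells (log2 fold -2.24 ± 0.30, edgeR adjusted p = 1.29e-06). Col18a1 had 11.2 and 36.7 CPM in Aire-type cells and 120.2 and 119.7 CPM in Ccl21a-type cells (log2 fold -2.51 ± 0.46, edgeR adjusted p = 7.98e-05). The same held for these 3 genes. Col12a1 and Col16a1 were lower with log2 folds of -0.97 and -1.09. The Col16a1 call was lost without a share rule, at a 90% share and with the stricter cell filter (edgeR adjusted p of 0.0677, 0.799 and 0.0509). Leaving out cells with a blood-marker UMI lost Col16a1, Col4a2 and Col18a1 (edgeR adjusted p of 0.697, 0.182 and 0.2).

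**Figure D3:**
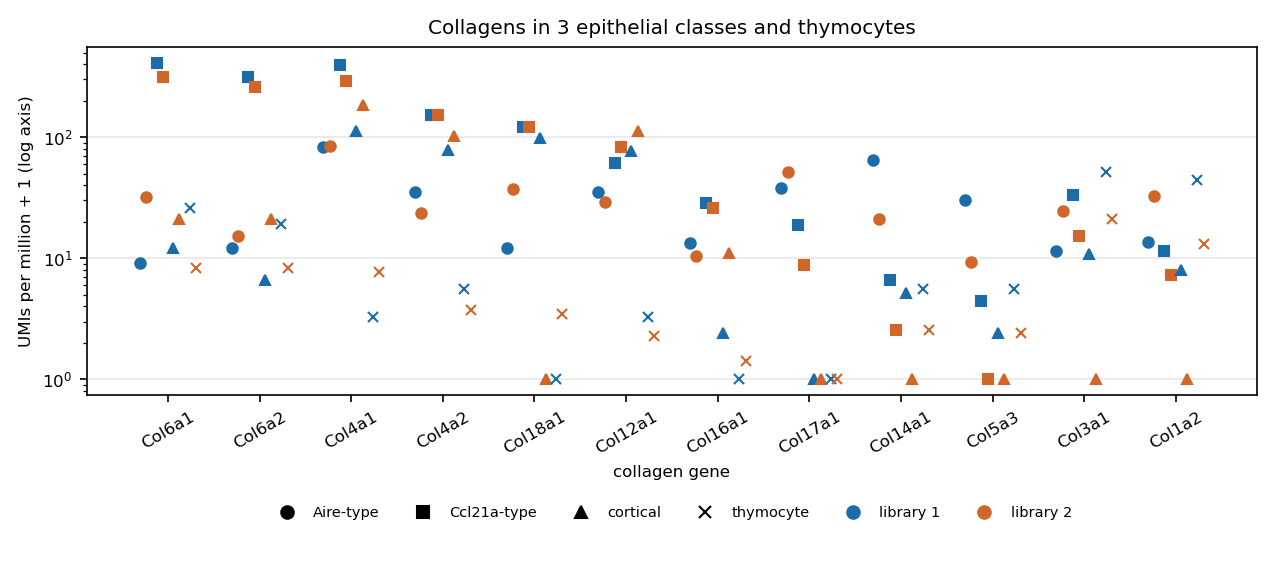
Levels of 12 collagens (CPM, log axis) in Aire-type, Ccl21a-type and cortical epithelium and in thymocytes, with 1 point per library. Col6a1 of Ccl21a-type cells, at 410.0 and 312 CPM, and Col6a2, at 314 and 259.9 CPM, stand above the Aire-type cells and the thymocytes.

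Collagen UMIs were also counted per Col3a1 UMI, as a description. Ccl21a-type cells had 1085 Col6a1 and 86 Col3a1 UMIs in library 1, a ratio of 12.6, and 198 and 9 in library 2, a higher ratio still, against ratios of 0.302 and 0.290 in fibroblasts and 0.500 and 0.367 in thymocytes. Col4a1 had 12.1 and 20.6 UMIs per Col3a1 UMI in Ccl21a-type cells, against 0.112 and 0.167 in fibroblasts and 0.0454 and 0.338 in thymocytes. The ratio of Col1a2 to Col3a1 was 0.326 and 0.444 in Ccl21a-type cells and 0.761 and 0.972 in fibroblasts. Fibroblast markers summed to 68.8 and 49.7 CPM in Aire-type and 158 and 184 CPM in Ccl21a-type cells, and mural markers to 396 and 536 CPM in Aire-type and 592 and 375 CPM in Ccl21a-type cells, and their part in these levels was not tested.

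Fewer UMIs stood behind the collagens that rose in Aire-type cells. Col17a1 had 36.9 and 50.9 CPM in Aire-type cells, against 17.8 and 7.88 CPM in Ccl21a-type cells (log2 fold 1.72 ± 0.51, edgeR adjusted p = 0.0124), and neither DESeq2 (adjusted p of 0.42) nor 2 of the other gates called it. It was found in 37.01% and 38.6% of Aire-type and 9.52% and 1.49% of Ccl21a-type cells. Col14a1 had 63.4 and 20.1 CPM in Aire-type cells and 5.67 and 1.57 CPM in Ccl21a-type cells (log2 fold 3.44 ± 0.46, edgeR adjusted p = 8.72e-07), and a UMI of it was present in 40.3% and 22.7% of Aire-type cells. Col5a3 had 29.4 and 8.28 CPM in Aire-type cells and 3.40 and 0 CPM in Ccl21a-type cells (log2 fold 3.18 ± 0.57, edgeR adjusted p = 7.18e-05). The Col5a3 call was lost under a gate with a 90% share (edgeR adjusted p = 0.234). It was also lost with cells holding a blood-marker UMI left out (edgeR adjusted p = 0.726). Aire-type values exceeded Ccl21a-type values in both libraries for each of these genes. The Aire-type level of Col9a1, which encodes a chain that coats cartilage fibrils, was 34.96 (95% counting interval 5.97 to 1410) times that of Ccl21a-type cells, with a single cell holding 14.3% and 72.00% of its UMIs. DESeq2 did not call Col9a1 (adjusted p of 0.636). Col15a1 was higher with a log2 fold of 1.52 (edgeR adjusted p = 0.0466), a call lost under DESeq2 (adjusted p of 0.0622) and under 5 of 6 other gates. Levels in Aire-type cells were 10.6 (95% counting interval 1.62 to 449.9) times those of Ccl21a-type cells for Col4a4 and 7.22 (95% counting interval 1.74 to 63.9) times for Col13a1, calls that 5 and 2 of the 6 other gates did not make. DESeq2 did not call Col13a1 (adjusted p of 0.0606), nor did a stricter gate (edgeR adjusted p = 0.0521). The stricter cell filter lost both Col4a4 and Col13a1 (edgeR adjusted p of 0.054 and 0.106). Col2a1, with 39 UMIs in Aire-type and 55 in Ccl21a-type cells, was not called (edgeR adjusted p = 0.515).

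The chains that share a trimer were compared within each class. Col4a1 and Col4a2 form type IV collagen at 2 chains of Col4a1 to 1 of Col4a2, and Col1a1 and Col1a2 form type I collagen in the same proportion. The Col4a1 to Col4a2 UMI ratio stayed within 1.44 to 2.94 over the 20 class-by-library values with at least 20 Col4a2 UMIs. It was 2.30 and 2.33 in fibroblasts, 2.04 and 1.92 in endothelium and 2.45 and 2.14 in epithelium. The Col6a1 to Col6a2 ratio lay between 0.718 and 1.41 over the 18 values with at least 20 Col6a2 UMIs, and was 2.17 in Aire-type cells of library 2, on 26 and 12 UMIs.

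Col1a1 to Col1a2 varied more, from 0.0938 to 2.11 over the 19 values with at least 20 Col1a2 UMIs. It was 0.653 and 0.515 in Pi16-type, 0.456 and 0.417 in Postn-type, 0.411 and 0.347 in Inmt-Penk-type and 0.348 and 0.302 in Cxcl14-type fibroblasts, an order that both libraries shared. Mural cells had 0.0938 and 0.0769, on 3 and 1 Col1a1 UMIs. The ratio in Ccl21a-type cells of library 1 was 2.11 (95% counting interval 1.32 to 3.43), from 59 Col1a1 and 28 Col1a2 UMIs, whereas library 2 had no Col1a1 UMI in that class. The plain UMI ratio also depends on how well each 3′ end is captured, so its departure from the chain proportion of the protein was not interpreted. Col4a1 and Col4a2 overlap by 22 bases head to head on chromosome 8, whereas Col1a1 and Col1a2 lie on chromosomes 11 and 6.

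**Figure D4:**
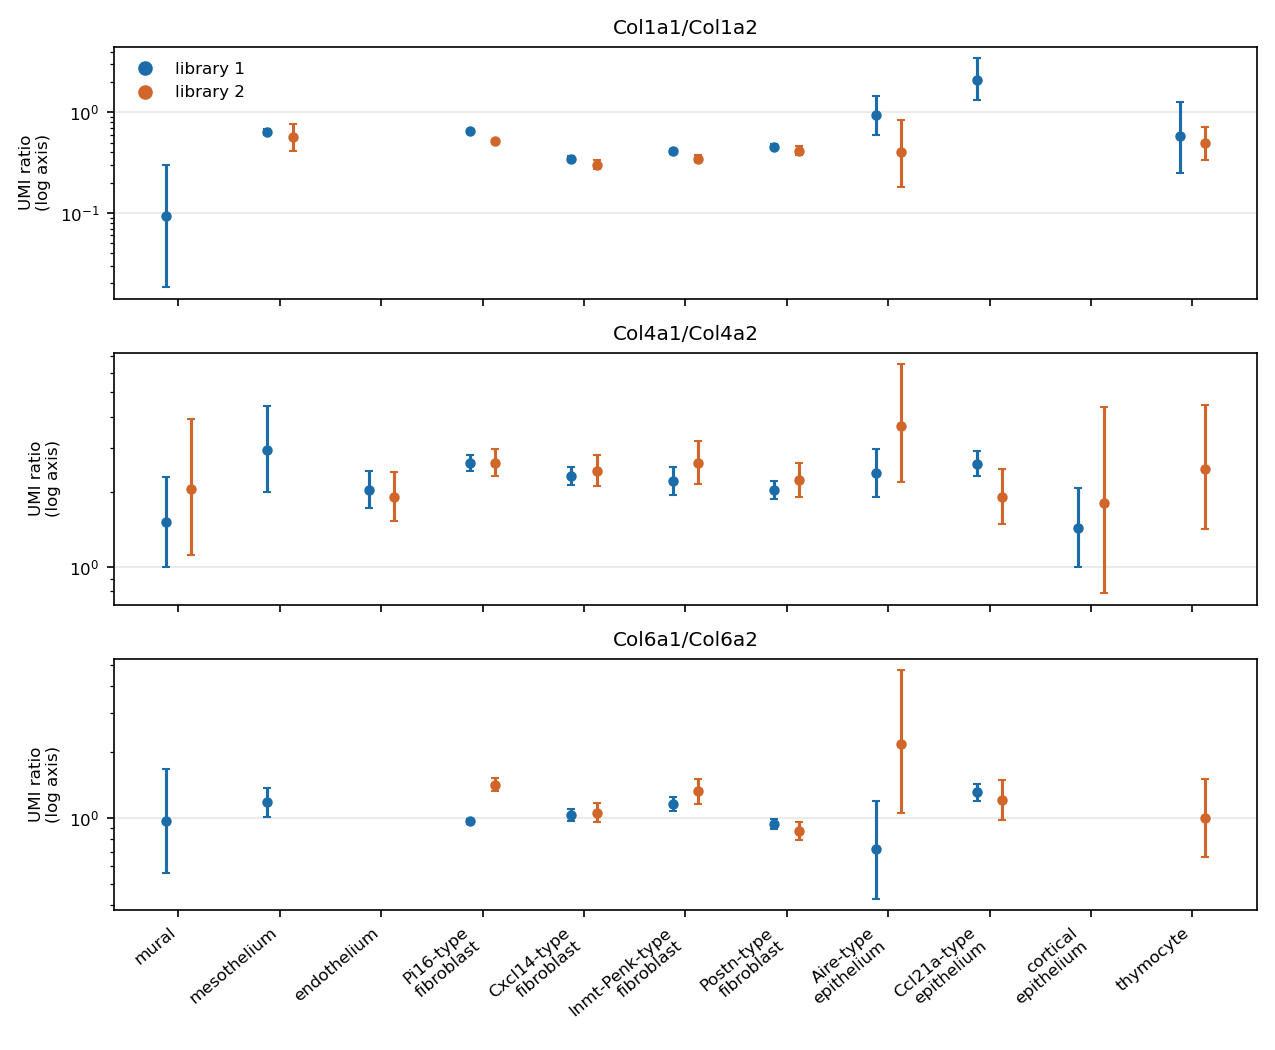
UMI ratios of paired chains (log axes) in each class of each library with 95% counting intervals. The Col4a1 to Col4a2 points with at least 20 Col4a2 UMIs stay within 1.44 to 2.94, whereas the Col1a1 to Col1a2 points with at least 20 Col1a2 UMIs run from 0.0938 to 2.11.

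Genes that act on collagens rose along with them in fibroblasts. Of 22 genes that hydroxylate, glycosylate or fold procollagen, 20 were tested, and 19 were higher and 0 lower in fibroblasts than in epithelium, beside 20.4% and 20.1% of all genes (median log2 fold 2.60). Plod1, a lysyl hydroxylase, had 101 and 101 CPM in fibroblasts, against 3.79 and 5.16 CPM in epithelium (log2 fold 4.71 ± 0.37, edgeR adjusted p = 3.63e-12). Fkbp7, a prolyl isomerase of the endoplasmic reticulum, had 142 and 134 CPM in fibroblasts and 4.68 and 7.54 CPM in epithelium (log2 fold 4.75 ± 0.36, edgeR adjusted p = 1.65e-12). Of 19 genes that process, crosslink or assemble fibrils, 15 were tested, with 14 higher and 0 lower (median log2 fold 5.02). Bgn, a small proteoglycan bound to fibrils, had 1478 and 1575 CPM in fibroblasts and 7.58 and 4.37 CPM in epithelium (log2 fold 8.08 ± 0.53, edgeR adjusted p = 7.21e-14). Loxl1, a lysyl oxidase, and Pcolce, an enhancer of procollagen cleavage, were higher with log2 folds of 6.995 and 6.34.

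The collagen receptors moved in both directions. Of 10 receptor genes 6 were tested, with 5 higher and 1 lower in fibroblasts, beside the same shares of all genes. Ddr2, a receptor tyrosine kinase for fibrillar collagen, had 373 and 383 CPM in fibroblasts, against 1.45 and 1.59 CPM in epithelium (log2 fold 8.11 ± 0.46, edgeR adjusted p = 1.32e-14). Ddr1, its relative, had 11.9 and 15.8 CPM in fibroblasts and 54.9 and 67.5 CPM in epithelium (log2 fold -1.99 ± 0.31, edgeR adjusted p = 1.95e-06). Ddr2 was thus higher in fibroblasts and Ddr1 in epithelium.

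Between subtypes the processing list had unequal counts, to be read beside the shares of all genes given with each subtype above. In Pi16-type cells 11 of its 15 tested genes were higher and 2 lower, in Postn-type cells 2 were higher and 8 lower, in Cxcl14-type cells 1 was higher and 7 lower, and in Inmt-Penk-type cells 5 were higher and 0 lower. The hydroxylation list had 2 of 21 tested genes called in Pi16-type and 2 in Postn-type cells, P3h2 and Plod1 in both, lower in Pi16-type and higher in Postn-type cells, beside 16.8% and 8.26% of all genes, so these counts are near or under the background. Against fibroblasts, the hydroxylation list had 1 gene higher and 7 lower in mural cells, 1 higher and 4 lower in mesothelium and 0 higher and 15 lower in endothelium. The processing list had 1 higher and 12 lower in mural cells, 3 higher and 9 lower in mesothelium and 1 higher and 12 lower in endothelium. These lists had 20 and 15 tested genes. Over all genes, 2.78% were higher and 6.14% lower in mural cells, 6.25% and 8.23% in mesothelium and 7.61% and 11.8% in endothelium. In endothelium the 1 higher processing gene was Tgm2, a transglutaminase. Epithelium over thymocytes had 10 genes of the hydroxylation list and 8 of the processing list higher, of 20 and 15 tested, and 0 of either lower, beside 30% of all genes called higher and 19.5% lower. Aire-type over Ccl21a-type cells had 2 higher and 6 lower in the hydroxylation list and 6 higher and 5 lower in the processing list. Of 21 and 15 tested genes, 8 and 11 were thus called, beside 31.3% of all genes (18.8% higher and 12.5% lower). The hydroxylation count in either direction is near that background. Of the 6 tested receptors, 1 was higher and 4 lower in endothelium than in fibroblasts, beside 7.61% and 11.8% of all genes. The higher one was Itga1, a chain of an integrin that binds collagen IV.

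Of the 17 members that did not enter the lineage tests, several had more UMIs in epithelium than in fibroblasts. Col19a1, a FACIT collagen, had 86 and 14 UMIs in epithelium (9.58 and 5.56 CPM) and 0 and 0 in fibroblasts, spread over 32 and 5 Ccl21a-type and 20 and 4 Aire-type cells. Col22a1, a FACIT collagen of tissue junctions, had 44 and 5 UMIs in epithelium, in 30 and 3 cells. Col9a2 had 57 and 11 UMIs in 36 and 8 epithelial cells and Col9a3 had 28 and 4 UMIs. Each of these genes was seen in several epithelial cells of library 1 and in few of library 2.

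Other genes outside the lineage tests were found in fibroblasts. Col7a1, described above for the Postn-type, had 148 and 55 fibroblast UMIs. Col23a1, a transmembrane collagen, had 74 and 34 UMIs there, Col8a2 had 66 and 46 and Col26a1 had 88 and 39. Col28a1 had 31 and 13 fibroblast UMIs and Col24a1, a fibrillar gene, had 9 and 0. Col4a3, the partner of Col4a4, had 42 and 13 UMIs in fibroblasts and 7 and 1 in mesothelium. Col20a1 had 21 and 7 UMIs in epithelium, among them 6 and 2 in cortical cells. Apart from Col7a1 and Col26a1, which entered the fit of 11 classes, these members are given as counts with no test.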

How the data were processed

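For each of the 2 libraries of CD45-depleted thymic stroma, the deposited values are whole-number UMI counts of every gene in every barcode, not normalised by the authors. Cell Ranger 7 and Seurat 4 are named, with build mm10, in the submitters' processing notes, but per the file headers Cell Ranger 6.0.0 wrote the count matrices. Whether counting used strand is not given in the sources used here. In GENCODE, 15 of the 43 members overlap another annotated gene on the same strand, whose reads could be counted with theirs.

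A cell was kept if it had 500 or more genes, 1000 or more UMIs and no more than 10% of UMIs from mitochondrial genes. Cells were gated on marker lists that hold no collagen. A lineage needed at least 4 distinct own markers, other lineages could show at most 50% as many, and own markers had to hold at least 80% of lineage-marker UMIs. For mesothelium and epithelium, 1 other lineage each (fibroblast or mural) was allowed up to as many distinct markers as the lineage's own. The UMIs of that allowed lineage did not count in the 80% share, so mesothelial cells could hold many fibroblast-marker UMIs. Marker lists were fixed first, but the limits of the lineage and subtype gates were set after the data, collagen levels included, had been seen. This gate was picked from 7 compared, which differed in the number of markers (3 or 4), the share (none, 70%, 80% or 90%) and the mural allowance for epithelium, and the closing section gives results under the other 6. No doublet caller was run. Fibroblasts were Pi16-type with at least 3 of 7 markers. With at most 1 of these, cells were Inmt-Penk-type at 2 UMIs of Inmt and Penk together, Cxcl14-type at 2 UMIs of Cxcl14, or Postn-type at 20 Postn UMIs per 10000. Cells just under these limits numbered 104 and 176, 96 and 118, 79 and 89, and 68 and 86 in the 2 libraries. Epithelial types needed at least 60% of their own markers, 20 percentage points more than any other type.

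UMIs were summed per library and class and tested with edgeR 4.0.16 (R 4.3.3; TMM scaling, filterByExpr, quasi-likelihood test, library as a block) in a fit of 6 lineages (11926 genes) and one of 11 classes (12305 genes), with Benjamini-Hochberg adjustment over all genes. Every class of a library comes from the same cell suspension, which is what pairs them. DESeq2 1.42.0, scanpy 1.11.5 clusters and other settings served as alternatives. Intervals are 95% and cover counting error only, and a count of 0 was set to a floor of 3 UMIs over the group for bounds. Counts were also simulated for the 11926 and 12305 genes of the fits, with a fixed dispersion. The changed genes were drawn only from those averaging over 1 UMI in the smallest sum. Among these, the fibroblast against epithelium comparison recovered 17% of genes changed by 1 log2 unit and 99% of those changed by 2. The Pi16-type comparison recovered 52% and 99%. These rates do not cover members below that level, such as Col17a1.

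Members and gene lists were chosen with earlier results of these data known. Named with full statistics were, per comparison, up to 6 called members with the widest log2 fold in each direction and alike in both libraries, the pairs Col1a1 and Col1a2, Col4a1 and Col4a2, Col6a1 and Col6a2, and Col3a1, Col15a1 and Col18a1, and up to 3 called genes of each list in each direction. Further members were named after their values were seen.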

Additional observations from a re-analysis of the deposited data

How the results depend on the processing

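Of 149 recomputed counts of called collagens, 138 stayed within 1.5 times the count given above. DESeq2 called 6 members in Cxcl14-type fibroblasts (11 by edgeR) and 9 in Aire-type epithelium (14 by edgeR), and with no filter on low counts 5 were called in Inmt-Penk-type cells (2 with it). When cells with any blood-marker UMI were left out, 14 members were called in mesothelium (22 otherwise), 10 in epithelium over thymocytes (19), 10 in Pi16-type (19), 2 in Cxcl14-type (11), 4 in Postn-type (15) and 4 in Aire-type cells (14), and 12 genes of the hydroxylation list (19). That setting left 366 and 219 fibroblasts and 89 and 22 epithelial cells, and 6410 and 5500 genes were tested in its 2 fits. It also gave a log2 fold that changed sign, -0.28 for Col18a1 in fibroblasts over epithelium (edgeR adjusted p = 0.73, against 0.83 and 0.0389 above). Each of the 6 other lineage gates that had been compared on these data was also run, and with them stricter subtype limits, all chosen after seeing the data. Under these, 8 members were called in Aire-type epithelium with a 90% share and no mural allowance (14 above) and 4 in Inmt-Penk-type cells with the stricter limits (2 above). That 90% gate put 2 Aire-type log2 folds near 0, -0.0012 for Col4a4 and -0.0024 for Col13a1 (edgeR adjusted p of 1 for each). Of 2519 recomputed log2 folds in all, 2252 kept their direction and side of the threshold, 99 lost and 29 gained the call, and 136 without a test moved by more than their error. Without the replicate block, the Col6a5 log2 fold in Postn-type cells was 1.14 (adjusted p of 0.473), and no count of calls moved by over 1.5 times. Leaving out either library leaves 1 library a class, which gives log2 folds with no test and no count of calls. Clusters could replace the gates for lineages only. Mesothelium of library 2 (4 cells) and mural cells (16 and 8) limit what their comparisons can show.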

Other observations

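Tuft-like epithelial cells, gated on markers such as Trpm5, Avil and Pou2f3 and too few for the tests above, had Col4a4 at 113 and 113 CPM, from 69 and 24 UMIs in 39 and 17 cells. A Col4a4 UMI was present in 16 and 8 of them, and the cell with most held 21.7% and 37.5% of the UMIs. Mesothelium, the highest of the tested lineages, had Col4a4 at 49.1 and 43.2 CPM, the library 2 value resting on 2 UMIs. Col4a3, which starts 71 bases from Col4a4 head to head on chromosome 1 and whose chain joins that of Col4a4 in a trimer, had 0 and 0 UMIs in tuft-like cells.

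For several cartilage collagens a single epithelial cell held much of the count. Col9a1 had 58 and 29 UMIs in epithelium, and 1 cell held 56.9% and 62.1% of them. Col2a1, the fibrillar collagen of cartilage, had 48 and 51 epithelial UMIs in 36 and 10 cells, with 6.25% and 72.5% of them in the leading cell of each library. Col10a1, the network collagen of hypertrophic cartilage, had 33 and 1 UMIs, and in library 1 they came from 3 cells, 1 of which held 22. Col25a1 had 18 and 0 epithelial UMIs, spread over 9 and 0 cells.

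Cells with markers of both fibroblasts and mural cells, which no comparison used, numbered 92 and 17 and gave collagens 1.21% and 1.07% of their UMIs, between the 2.15% and 1.42% of fibroblasts and the 0.401% and 0.332% of mural cells.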
